A study of Mus musculus with 3 samples.

Results

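The S-phase genes described here are 38 genes whose transcripts accumulate as cells enter and pass through DNA synthesis, the list commonly used to score S phase in single cells. They were taken by name from such a list, found by Ensembl ID, and make up 38 of the 30406 genes present in the tables of all 3 libraries. Each of the 38 was present in every table.

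The libraries are 3 droplet (10x Genomics) 3' single-cell RNA libraries of lung cells from C57/B6 mouse embryos at E14.5, when the lung epithelium is branching. Epcam marks epithelial cells and Icam1 is a surface adhesion protein. For 2 libraries cells had been sorted as Epcam+ Icam+ (replicates 1 and 2), and for 1 library as Epcam+. No treatment or altered genotype is named for any library. Lungs were pooled before dissociation, and nothing in the labels tells whether each library had its own pool. A p-value here therefore measures spread among these libraries that could be technical. Values of the 3 libraries are given below in the order Epcam+ Icam+ replicate 1, Epcam+ Icam+ replicate 2 and Epcam+.

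Cells were compared in 4 classes, each set by marker genes that are not among the 38. Epithelial cells held at least 10 transcript molecules (UMIs) of Epcam, Cdh1, Krt8 and Krt18, and macrophages at least 10 of C1qa, C1qb, C1qc, Csf1r and Pf4. Within the epithelium, tip cells had a UMI of Sox9, the transcription factor of the distal branching tips, airway cells had one of Sox2, the factor of the conducting airway, and Hopx/Clic5-positive cells had one of either of those alveolar type 1 genes. Cells with markers of more than 1 epithelial class, or of none, entered no class. Every cell was first thinned to 5000 UMIs, so that a count of S-phase UMIs is not a count of depth. The libraries held 137, 159 and 357 tip cells, 29, 39 and 116 airway cells, 766, 635 and 43 Hopx/Clic5-positive cells, and 501, 465 and 73 macrophages. A single marker UMI placed 110, 126 and 289 of the tip cells and 21, 27 and 72 of the airway cells. It placed 366, 319 and 39 of the Hopx/Clic5-positive cells. Of 1800, 1609 and 1592 epithelial cells, 684, 606 and 1038 had no class marker.

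The deposited barcodes numbered 4739, 4531 and 3697, with 74170599, 67843828 and 84460347 UMIs. After filtering, 3266, 3046 and 2902 cells with median depths between 19429.5 and 26646 UMIs were left, and 2861, 2596 and 2649 of them reached 5000 UMIs. Libraries shared at most 3 barcodes. The Epcam+ library stood apart from the others in its table of 31053 rather than 32285 genes and in its software version. The markers outside the gates bore the class names out unevenly. The airway list without Sox2 (Scgb3a2, Cyp2f2, Cldn10, Hey1) held 21.2, 19.5 and 5.26 UMIs per airway cell against 0.71, 0.94 and 0.63 per tip cell. The tip list without Sox9 (Etv5, Etv4, Id2, Bmp4, Wnt7b) held 1.82, 1.79 and 4.64 UMIs per tip cell, against 2.25, 2.15 and 1.96 per macrophage, so that it set tip cells above macrophages in the Epcam+ library and not in the other libraries. Tip cells of the Epcam+ Icam+ libraries also held 44.5 and 36.7 UMIs of alveolar type 2 genes such as Sftpc, against 13.2 in the Epcam+ library. In the Epcam+ library the 43 Hopx/Clic5-positive cells held 0.65 UMIs of the other alveolar type 1 genes, against 0.69 in its tip cells, and 4.19 of the tip list. Those 43 cells go against an alveolar type 1 name and are called by their rule. Macrophage genes outside the gate held 5.40, 5.28 and 3.79 UMIs per macrophage and at most 0.02 per tip cell.

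Replication starts at origins that are licensed in G1, when the MCM2-7 ring is loaded with the help of Cdc6 and Cdt1. The ring becomes an active helicase when Cdc45 and the GINS complex join it. E2F transcription factors, held in check by Rb family proteins until cyclin E and cyclin-dependent kinases release them, drive the genes for this machinery, for nucleotide synthesis and for packaging of the new DNA. In the branching lung, cells at the distal tips are the dividing progenitors of the epithelium. Transcripts of these genes persist for a time, so that their counts mark recent or coming DNA synthesis and are not themselves a measurement of replicating DNA.

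The promoters of the members are shown first because the site that E2F binds is what the 38 genes are best known to have in common. RefSeq promoter windows (GRCm38.p6, 250 bases before to 50 after a transcription start) were matched for 28 of the 38 genes by symbol, with 31 windows. On both strands they were searched for the E2F sequence, TTT followed by a pair of bases that are each C or G and by CGC. A match was present in 12 of 31 windows (38.7%), those of Casp8ap2, Cdc6, Cdca7, Clspn, Dtl, Hells, Mcm5, Mcm6, Pola1, Pold3, Ubr7 and Uhrf1, against 2.26% of all 32851 windows of this length. A list of 40 other replication and E2F pathway genes, 35 of them matched, had it in 35.6% of windows. The CHR element of G2/M genes, TT followed by T or C and by GAA, was present in 19.4% of the members' windows and 19.2% of all windows, and in 79.3% of the windows of a list of 30 G2/M genes. In the windows below, 5′ to 3′ on the strand of the gene, capitals mark the E2F matches. Mcm5 has 2 overlapping matches on opposite strands and Mcm6 has 3, of which 2 overlap in the same way. A match describes the letters and not a bound site.
Mcm6, chr1:128359656-128359955, a subunit of the helicase ring: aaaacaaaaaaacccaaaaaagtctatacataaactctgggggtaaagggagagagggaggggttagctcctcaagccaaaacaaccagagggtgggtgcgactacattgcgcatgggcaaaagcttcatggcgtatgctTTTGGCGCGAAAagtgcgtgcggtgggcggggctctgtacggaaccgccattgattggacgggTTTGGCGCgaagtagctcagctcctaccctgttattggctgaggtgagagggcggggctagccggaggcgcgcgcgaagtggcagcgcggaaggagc
Mcm5, chr8:75109259-75109558, another subunit of the ring: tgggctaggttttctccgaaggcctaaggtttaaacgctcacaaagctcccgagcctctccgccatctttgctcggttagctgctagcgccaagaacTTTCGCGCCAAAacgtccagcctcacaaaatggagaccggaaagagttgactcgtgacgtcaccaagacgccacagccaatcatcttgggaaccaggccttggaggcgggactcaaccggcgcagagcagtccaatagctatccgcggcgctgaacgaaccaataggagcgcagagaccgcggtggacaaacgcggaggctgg
Cdc6, chr11:98907901-98908200, the loader of the ring: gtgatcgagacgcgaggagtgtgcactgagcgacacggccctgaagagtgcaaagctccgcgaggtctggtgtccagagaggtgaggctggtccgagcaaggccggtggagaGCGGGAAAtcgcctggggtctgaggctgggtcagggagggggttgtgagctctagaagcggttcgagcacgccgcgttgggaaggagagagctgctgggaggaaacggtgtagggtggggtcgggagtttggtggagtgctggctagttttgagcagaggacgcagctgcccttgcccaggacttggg
Cdca7, chr2:72475969-72476268, a partner of the remodeller Hells: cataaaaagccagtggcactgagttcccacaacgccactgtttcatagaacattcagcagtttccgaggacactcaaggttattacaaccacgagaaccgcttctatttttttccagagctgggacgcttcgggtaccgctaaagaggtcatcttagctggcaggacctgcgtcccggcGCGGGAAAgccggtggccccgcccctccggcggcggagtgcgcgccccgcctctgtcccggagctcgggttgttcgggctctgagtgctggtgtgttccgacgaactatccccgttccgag
Hells, chr19:38930740-38931039, a chromatin remodeller needed for DNA methylation: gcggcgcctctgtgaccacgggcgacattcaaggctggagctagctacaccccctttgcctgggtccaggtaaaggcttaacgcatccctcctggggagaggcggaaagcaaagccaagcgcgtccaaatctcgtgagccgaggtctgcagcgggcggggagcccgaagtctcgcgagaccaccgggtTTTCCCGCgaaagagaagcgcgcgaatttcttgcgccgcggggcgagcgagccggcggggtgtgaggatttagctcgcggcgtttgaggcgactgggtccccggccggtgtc
The strand of Mcm6 is minus and that of the other genes shown is plus. The class comparisons below gave close medians for members with and without a match. In macrophages against tip cells the median log2 difference was -0.87 over the 12 members with a match and -0.75 over the 15 tested members whose window had none. In airway against tip cells these medians were -0.76 and -0.71.

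Tip cells carried more S-phase UMIs than airway cells and macrophages in each library. The mean number per cell of 5000 UMIs was 11.5, 11 and 17.6 in tip cells, 6.76, 9.74 and 11.3 in airway cells, 10.1, 9.56 and 17.9 in Hopx/Clic5-positive cells and 6.10, 5.54 and 10.2 in macrophages. Macrophages were the lowest class in each library. Tip and Hopx/Clic5-positive cells lay close together, with tip cells above in both Epcam+ Icam+ libraries and below in the Epcam+ library. Cells within a class varied far more than class means. In tip cells the 10th and 90th percentiles were 3 and 26, 2 and 23, and 7 and 30 UMIs. All 4 classes held more S-phase UMIs in the Epcam+ library than in either Epcam+ Icam+ library.

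**Figure D1:**
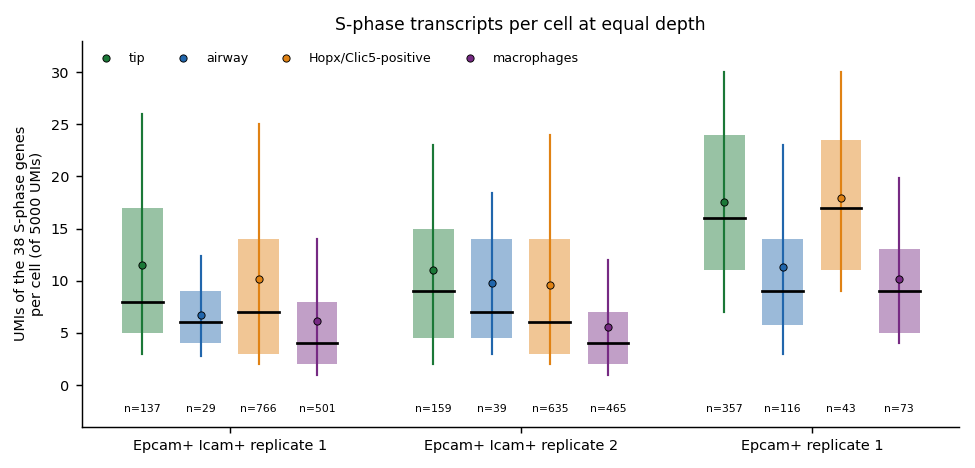
UMIs of the 38 S-phase genes per cell of 5000 UMIs (vertical axis) by library (horizontal axis) and class (colour), with the 10th to 90th percentile as a line, the 25th to 75th as a box, the median as a black bar, the mean as a point and the number of cells below. The boxes of the Epcam+ library sit higher than those of the same class in the Epcam+ Icam+ libraries, and in each library the macrophage mean is the lowest, at 6.10, 5.54 and 10.2.

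By the share of cells with at least 10 S-phase UMIs, macrophages were lowest in both Epcam+ Icam+ libraries, and macrophages and airway cells lay together in the Epcam+ library. The share was 43.1% (exact binomial interval 34.6 to 51.8), 49.7% (41.7 to 57.7) and 79.8% (75.3 to 83.9) in tip cells, and 19.6% (16.2 to 23.3), 15.9% (12.7 to 19.6) and 46.6% (34.8 to 58.6) in macrophages. Airway cells stood at 20.7% (7.99 to 39.7), 38.5% (23.4 to 55.4) and 45.7% (36.4 to 55.2). The intervals are at 95% and cover counting error of cells alone. In both Epcam+ Icam+ libraries the airway and tip intervals overlapped, and in the Epcam+ library they did not. Within libraries, macrophages lay below tip cells by a difference of -30.2 ± 5.78 percentage points (SD, n = 3 libraries) and airway cells by -22.6 ± 11.5 (-13.3 with cells thinned to 10000 UMIs). With 3 libraries no exact test of these shares can reach 0.05. Hopx/Clic5-positive cells had shares of 38% (34.5 to 41.5), 36.1% (32.3 to 39.9) and 86.0% (72.1 to 94.7), and differed from tip cells by -4.16 ± 9.95 points, less than the spread between libraries, and by -11.5 points with cells thinned to 10000 UMIs.

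Transcripts of the G2/M list followed the order of the S-phase UMIs across classes in Epcam+ Icam+ replicate 2 and the Epcam+ library. In Epcam+ Icam+ replicate 1 they did not. Their mean number per cell was 12.8, 13.8 and 12.5 in tip cells, 14.3, 8.56 and 11.3 in airway cells, 9.11, 8.20 and 13.5 in Hopx/Clic5-positive cells and 6.10, 5.5 and 9.49 in macrophages. Airway cells of Epcam+ Icam+ replicate 1, which had 6.76 S-phase UMIs per cell, thus had 14.3 G2/M UMIs, the highest G2/M mean of any class in that library. The 40 other replication genes gave 9.32, 9.16 and 13.3 UMIs per tip cell and 4.63, 4.06 and 7.89 per macrophage.

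Levels of single members are given as CPM, the usual scaling of a count by its total, here the summed UMIs of a class in a library, all 12 sums being of cells at equal depth. A single UMI was worth 6.90, 5.13 and 1.72 CPM in the airway sums and 4.65 CPM in the Hopx/Clic5-positive sum of the Epcam+ library, and at most 2.74 CPM elsewhere. The libraries are 3' libraries, so levels are compared across classes and not between genes. Tip cells held the highest of the 4 class levels for 24, 20 and 18 members. Airway cells did so for 3 members in Epcam+ Icam+ replicate 1 and 15 in replicate 2, and Hopx/Clic5-positive cells for 19 in the Epcam+ library. Macrophages held the lowest for 20, 32 and 23 members, and airway cells for 17, 4 and 10. Macrophages held the highest for 1 member in each library.

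**Figure D2:**
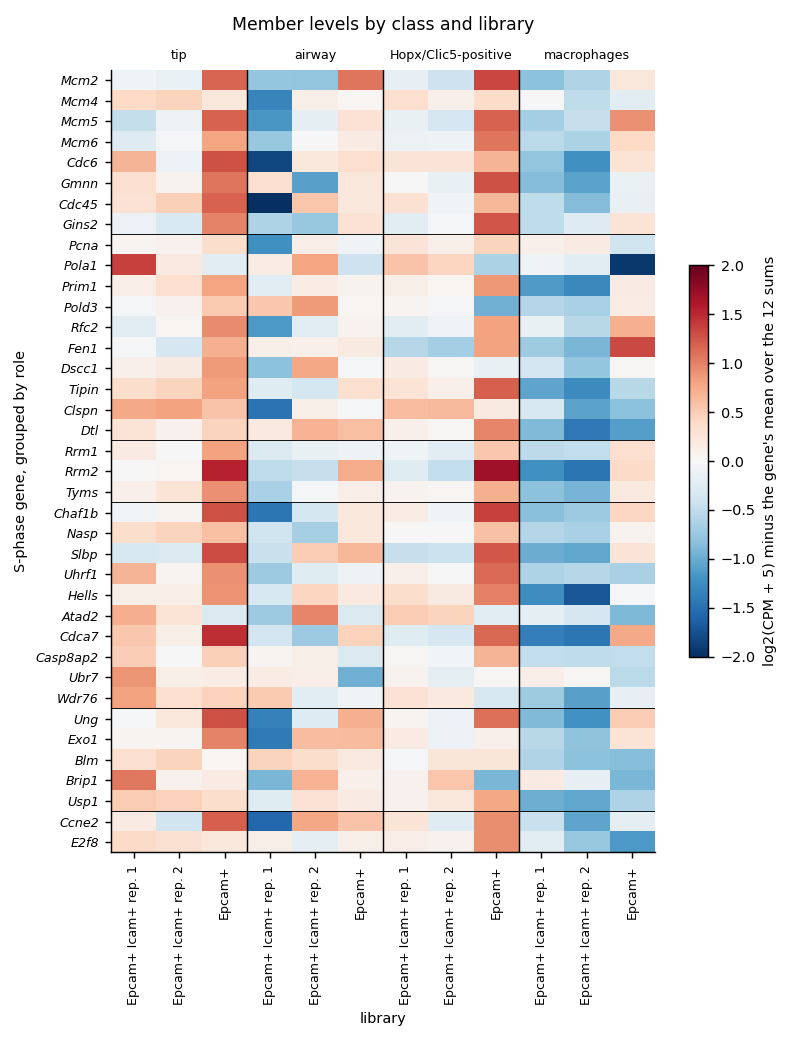
Level of each of the 38 members (rows, grouped by role) in each class and library (columns), as log2(CPM + 5) minus the mean of that gene over the 12 sums, with red above and blue below. The macrophage columns of the Epcam+ Icam+ libraries are blue for most genes, where macrophages held the lowest level of 20 and 32 members, and the tip and Hopx/Clic5-positive columns of the Epcam+ library are red for most genes of the helicase.

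Among members that license and open origins, Mcm2, Mcm4, Mcm5 and Mcm6 encode subunits of the helicase ring. Mcm5 stood at 36.5, 49.1 and 125 CPM in tip cells, 20.7, 46.2 and 65.5 in airway cells, 47.0, 40.6 and 126 in Hopx/Clic5-positive cells and 31.1, 37.0 and 104 in macrophages. Its Epcam+ value was thus the highest of the libraries in every class. Macrophages stood below tip cells in each library, although the ranges over libraries overlapped. Mcm2 was also highest in the Epcam+ library, with 36.5, 35.2 and 93.6 CPM in tip cells and 20.0, 24.1 and 46.6 in macrophages. Mcm6 stood at 80.3, 94.3 and 171 CPM in tip cells and 64.7, 60.2 and 129 in macrophages. Mcm4 broke the pattern of the other subunits, with 56.9, 59.1 and 49.9 CPM in tip cells, so that the Epcam+ library was the lowest. Cdc6, the ring loader, was scarce at 23.4, 11.3 and 37.5 CPM in tip cells and 5.19, 2.58 and 16.4 in macrophages. No Cdc6 UMI was seen in the 29 airway cells of Epcam+ Icam+ replicate 1, where 3 UMIs would be 20.7 CPM. Cdc45, which turns the ring into a working helicase, stood at 20.4, 23.9 and 42.0 CPM in tip cells and 9.58, 6.45 and 13.7 in macrophages, with no overlap between these classes. Gins2, a subunit of the GINS complex, had 51.1, 44.0 and 115 CPM in tip cells and 37.9, 46.0 and 68.5 in macrophages. Macrophages were thus above tip cells in Epcam+ Icam+ replicate 2 and below them in the other libraries.

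Nucleotide supply is represented by Rrm1 and Rrm2, the subunits of ribonucleotide reductase, and by Tyms, thymidylate synthase. Rrm2 stood at 51.1, 52.8 and 159 CPM in tip cells, 34.5, 35.9 and 89.7 in airway cells, 42.6, 35.0 and 177 in Hopx/Clic5-positive cells and 19.2, 15.5 and 68.5 in macrophages. Rrm1 varied less, at 77.4, 69.2 and 123 CPM in tip cells and 45.9, 47.3 and 87.7 in macrophages. Tyms had 120, 136 and 214 CPM in tip cells and 60.7, 56.3 and 129 in macrophages. All 3 genes were higher in tip cells than in airway cells and macrophages in every library.

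Pcna, the sliding clamp that holds polymerases on DNA, stood at 140, 143 and 174 CPM in tip cells and at 146, 151 and 101 in macrophages. Macrophages were thus only slightly above tip cells in both Epcam+ Icam+ libraries and were below them in the Epcam+ library. The steps within single libraries were not tested. In airway cells it had 55.2, 149 and 129 CPM. Uhrf1, which brings the maintenance DNA methyltransferase to new DNA, had 62.8, 39.0 and 75.1 CPM in tip cells and 22.8, 23.7 and 21.9 in macrophages, with no overlap. Cdca7 had 43.8, 31.4 and 89.1 CPM in tip cells, 20.7, 15.4 and 41.4 in airway cells and 7.98, 7.31 and 52.1 in macrophages. Slbp, which binds the stem-loop of histone messages, had 75.9, 78.0 and 245 CPM in tip cells, a step between sorts far larger than that between replicates. Ccne2, a cyclin E, was scarce, with 11.7, 6.29 and 29.1 CPM in tip cells and 5.99, 2.15 and 8.22 in macrophages. E2f8, a repressor of the family that shuts S-phase genes down, had 17.5, 16.4 and 15.1 CPM in tip cells and 9.98, 5.16 and 2.74 in macrophages.

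Airway against tip cells within libraries asks whether the conducting epithelium carries the S-phase program at the level of the tips. Of 37 members tested, 11 fell in airway cells and 0 rose (edgeR quasi-likelihood test with library as a block, Benjamini-Hochberg adjusted p under 0.05 over all genes), against 3% of the 8953 genes tested that fell and 5.84% that changed either way. The median log2 difference over the members was -0.69, against -0.03 over all genes. All 3 nucleotide supply genes fell, Rrm2 by 0.86, Rrm1 by 0.79 and Tyms by 0.77 on the log2 scale. In the chromatin group 4 of 10 fell, namely Cdca7 by 1.2 (SE 0.289, edgeR adjusted p = 0.00583), Chaf1b, a subunit of the histone chaperone that follows the fork, by 1.18 (SE 0.300), Uhrf1 by 1.12 (SE 0.295) and Nasp, a carrier of linker and core histones, by 0.74 (SE 0.142, edgeR adjusted p = 0.000450). Of the licensing and helicase genes Mcm5 fell by 0.85 and Gmnn, the inhibitor of relicensing, by 0.84. Of the fork genes Rfc2, a subunit of the clamp loader, fell by 0.87 and Tipin, a fork protection protein, by 0.68. None of the 4 repair genes tested nor Ccne2 and E2f8 passed the test.

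Chaf1b had 26.3, 28.9 and 73.9 CPM in tip cells and 6.90, 20.5 and 32.8 in airway cells, the first airway value being a single UMI. The airway levels of Cdca7 in both Epcam+ Icam+ libraries, and that of Mcm5 in Epcam+ Icam+ replicate 1, rest on 3 UMIs each. Rfc2 had 56.9, 69.2 and 133 CPM in tip cells and 27.6, 56.4 and 70.7 in airway cells. Both were lower in airway cells in each library, as were 20 of the 38 members and none the other way. Of the 40 other replication genes 39 were tested and 8 fell, among them Mcm7 (log2 -0.87) and Rfc3 (log2 -1.02). The count of members rests on all 3 libraries, since it was 1 without Epcam+ Icam+ replicate 1, 2 without Epcam+ Icam+ replicate 2 and 1 without the Epcam+ library, and it was 2 with DESeq2. It was 22 with cells thinned to 10000 UMIs.

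Between Hopx/Clic5-positive and tip cells no member passed the test at 5000 UMIs. With edgeR 0 of 37 members tested passed the threshold, against 0.949% of the 8953 genes, and DESeq2 also called 0. At an unadjusted p under 0.05 there were 3, Ubr7 (log2 -0.73), Cdca7 (-0.50) and Nasp (-0.27). The median over the members was -0.17. Mcm5 differed by -0.02 (SE 0.172), Pcna by 0.05 (SE 0.152) and Mcm6 by 0.05 (SE 0.137). A difference that misses the threshold does not show equal levels. Of the 40 other replication genes 39 were tested and 0 passed, with 3 at an unadjusted p under 0.05. Without the Epcam+ library, whose 43 cells held no more of the other alveolar type 1 genes than its tip cells did, 1 member passed, and with cells thinned to 10000 UMIs 2 members passed, both lower.

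Most members were lower in macrophages than in tip cells. Of 37 members tested 26 fell and 0 rose (edgeR adjusted p under 0.05), against 27.5% of genes that fell and 57.7% that changed either way, so that the background of this comparison is large. The median over members was -0.83 and over all genes 0.02, and 34 of the 38 were lower in every library. All 4 repair genes tested fell, and 9 of 10 chromatin genes, 7 of 10 fork genes, 2 of 3 nucleotide genes and 3 of 8 licensing genes. Wdr76, a WD-repeat protein, fell by 1.69, Cdc6 by 1.63 (SE 0.371) and Cdca7 by 1.46 (SE 0.249). Dtl, which directs the destruction of Cdt1 during S phase, fell by 1.41, Clspn, the checkpoint adaptor claspin, by 1.33 and Hells by 1.32 (SE 0.182, edgeR adjusted p = 6.06e-08). Cdc45 fell by 1.24, Ccne2 by 1.15, Rrm2 by 1.14, Uhrf1 by 0.86, Tyms by 0.75 and Slbp by 0.64. The others that fell were Ung, Prim1, Nasp, Gmnn, Pold3, Atad2, Exo1, Tipin, Dscc1, Blm, Casp8ap2, Usp1, Pola1 and Chaf1b, with log2 differences from -0.47 (Atad2) to -1.25 (Tipin).

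The 11 tested members that did not pass in macrophages were Mcm2, Mcm4, Mcm5, Mcm6, Gins2, Pcna, Rfc2, Fen1, Rrm1, Ubr7 and E2f8. They include every subunit of the helicase ring among the members, the clamp, a subunit of its loader, and Fen1, the flap nuclease that trims Okazaki fragments on the clamp. Their log2 differences were -0.08 for Mcm5 (SE 0.176), -0.18 for Mcm6, -0.32 for Mcm4, -0.43 for Mcm2, -0.03 for Gins2, -0.01 for Rfc2, 0.04 for Fen1, 0.20 for Pcna (SE 0.152), -0.34 for Rrm1, -0.28 for Ubr7 and -0.80 for E2f8 (SE 0.363). The E2f8 difference was as large as that of several members that passed, with a larger error. Whether these differ from the members that fell was not tested. Hells, Dtl and Clspn, chosen by size, had no overlap between classes. Hells stood at 86.1, 86.8 and 151 CPM in tip cells and 30.3, 20.6 and 76.7 in macrophages, Dtl at 29.2, 25.2 and 33.6 against 10.4, 5.59 and 8.22, and Clspn at 51.1, 52.8 and 44.3 against 21.6, 10.8 and 13.7.

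**Figure D3:**
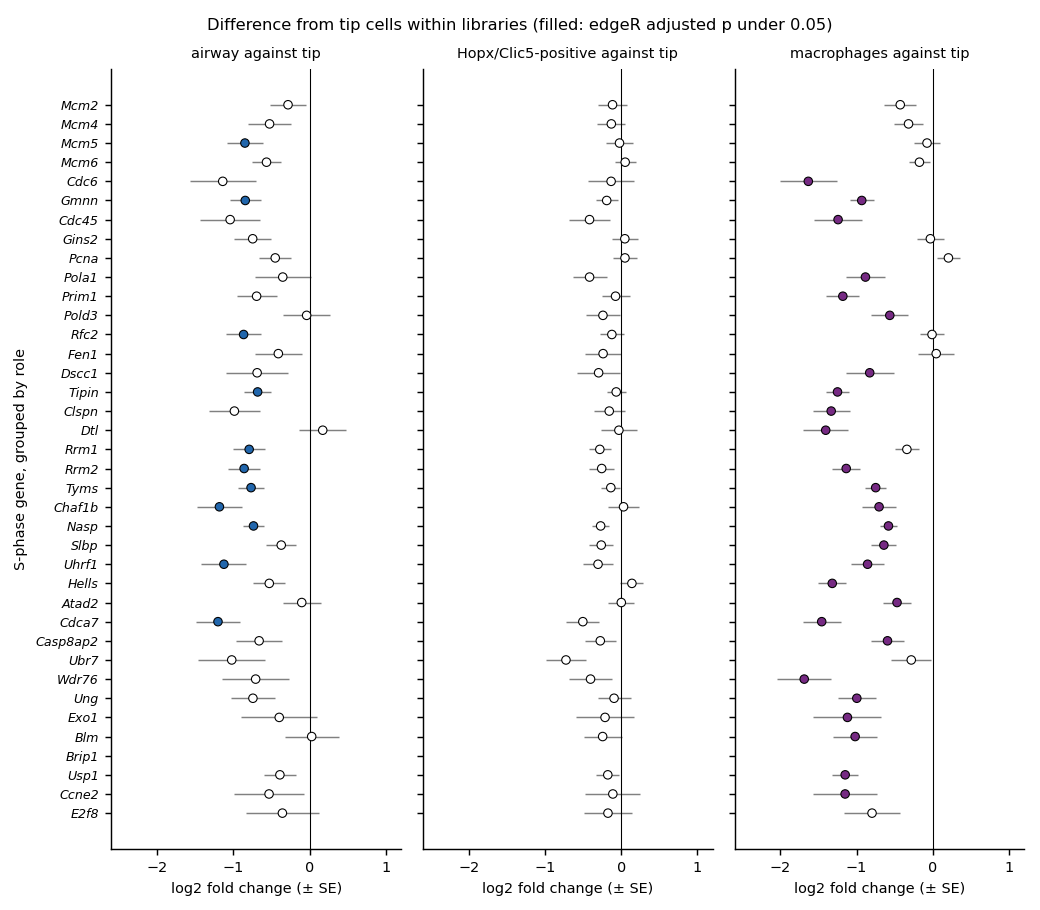
Log2 difference from tip cells (horizontal axis, with its SE) of the members tested (rows, grouped by role) in airway cells, Hopx/Clic5-positive cells and macrophages, filled where the edgeR adjusted p was under 0.05. In the airway panel 11 points are filled and in the macrophage panel 26, all to the left of 0, and in the Hopx/Clic5-positive panel none is filled.

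Of the 40 other replication genes 39 were tested in macrophages and 19 fell, with Cdc7, the kinase that fires origins, at -2.67 and E2f7 at -2.72. Free RNA in the suspension could reach macrophages from the epithelium. Epcam stood at 90.6, 65.8 and 175 CPM in macrophages against 1191, 1161 and 1212 in tip cells, and C1qa at 0, 2.52 and 5.6 CPM in tip cells against 2042, 2113 and 1540 in macrophages. The part of such RNA in the S-phase levels of macrophages was not tested. With gates at 20 UMIs, which left at most 33 tip cells in a library, 4 members were called lower and 1 higher, and the median was -0.36. Without the library block 10 members passed. Brip1, a helicase of the Fanconi pathway, did not pass the filter on low counts in the class comparisons, with 14.6, 5.03 and 5.6 CPM in tip cells and 5.59, 3.44 and 0 in macrophages.

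Members were also compared between cells with many and few G2/M transcripts. The cells of each class in each library were ranked by their UMIs of the G2/M list, which holds no member. They were divided into 3 groups of equal size, and the highest and lowest groups were summed and compared with library and class as a block. Cell cycle stages in the lowest group were not determined, so a rise does not by itself show that transcripts persist into G2/M. Of 33 members tested 21 rose in G2/M-high cells and 1 fell (edgeR adjusted p under 0.05), against 8.84% of 6231 genes that rose and 21% that changed either way, and the median was 0.60 against -0.07 over all genes. Clspn rose by a log2 of 1.90 (SE 0.257), Blm, a helicase of DNA repair, by 1.69, Rrm1 by 1.61, Tyms by 1.54, Gmnn by 1.46, Atad2, a chromatin ATPase, by 1.44 and Rrm2 by 1.38 (SE 0.244). Ung, which removes uracil from DNA, fell by 0.92 (SE 0.275, edgeR adjusted p = 0.0115). Summed over libraries, G2/M-high against G2/M-low cells held 16 against 73 Ung UMIs in tip cells and 5 against 12 in airway cells. They held 40 against 50 in Hopx/Clic5-positive cells, and in macrophages the direction was opposite, at 23 against 18. Pcna rose by 0.59, Uhrf1 by 0.68 and Slbp by 0.51. Of the licensing and helicase genes 3 of 7 tested rose, Gmnn, Cdc45 (1.03) and Gins2 (0.48), and no Mcm subunit passed. Cdc6, Wdr76, Exo1, Brip1 and E2f8 did not pass the filter on low counts here. Among the 26 other replication genes tested 16 rose and 0 fell, led by Tk1, thymidine kinase, at 1.79.

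**Figure D4:**
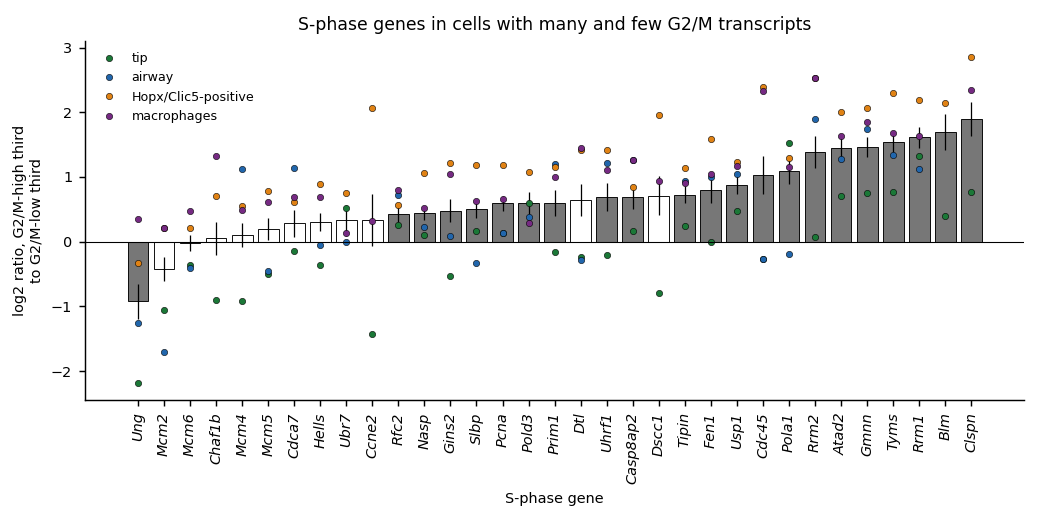
Log2 ratio of G2/M-high to G2/M-low cells (vertical axis) for the members tested (horizontal axis), with the fitted value over all classes as a bar (grey where the edgeR adjusted p was under 0.05) with its SE and the ratio of the UMIs of each class summed over the 3 libraries as coloured points, drawn where both sums held more than 3 UMIs. Clspn, at 1.90, is at the upper end and Ung, at -0.92, at the lower end. The tip points lie below those of Hopx/Clic5-positive cells for most genes. The Epcam+ library gave 119 tip but 14 Hopx/Clic5-positive cells to each group, and its part in that order was not tested.

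Classes and libraries did not behave alike in this division, although the difference between them was not tested. Rrm2 stood at 57.8, 67.9 and 121 CPM in G2/M-high tip cells and at 13.3, 11.3 and 155 in G2/M-low tip cells. In Hopx/Clic5-positive cells it stood at 76.9, 62.6 and 143 CPM against 9.41, 7.58 and 143. In both classes Rrm2 was thus higher in G2/M-high cells of the Epcam+ Icam+ libraries and was not higher in the Epcam+ library. The G2/M-low tip values of the Epcam+ Icam+ libraries rest on 3 UMIs each, from 45 and 53 cells, so the size of that rise is uncertain. The Hopx/Clic5-positive values of the Epcam+ library rest on 14 cells a group. Tip values of Mcm2 and Ung in the Epcam+ Icam+ libraries, given next, also rest on few UMIs. Mcm2 in tip cells was at 22.2, 11.3 and 57.1 CPM against 31.1, 34.0 and 119, lower in G2/M-high cells in each library. Ung in tip cells was lower as well, at 17.8, 0 and 20.2 CPM against 31.1, 34.0 and 95.8. All 38 members together gave 12.3, 11.2 and 15.3 UMIs per G2/M-high tip cell and 7, 7.04 and 17.5 per G2/M-low tip cell, so that the Epcam+ library ran opposite to the others. In Hopx/Clic5-positive cells these values were 14.4, 14.2 and 14.7 against 5.42, 5.5 and 19.1, where the Epcam+ values rest on 14 cells a group. Macrophages had 8.60, 7.70 and 10.9 against 4.38, 3.75 and 7.62, higher in G2/M-high cells in each library. With tip cells alone 2 members passed the test and with macrophages alone 12. Without the Epcam+ library 28 passed, and without either Epcam+ Icam+ library 12.

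Within tip cells the members also differed in how closely they followed one another. Tip cells were divided by whether they held at least 10 UMIs of the other 37 members. A ratio over libraries was taken where both groups held more than 3 UMIs in every library, which left 22 members. Members scarce in cells with few S-phase UMIs can thus be missing from the order below. These ratios are descriptions, since members share the cells and the depth. Rrm2 was 6.26 times as high in the cells with many S-phase UMIs (geometric mean over libraries, range 2.96 to 10.6), Pcna 4.89 times (3.09 to 9.25) and Fen1 4.36 times (3.5 to 4.93). At the other end stood Nasp at 1.55 times (1.36 to 1.71), Cdca7 at 1.76 times, Casp8ap2 at 1.92 times (1.21 to 2.64) and Uhrf1 at 1.93 times. The order changed from library to library at both ends. In the Epcam+ library Fen1 and Pcna stood above Rrm2, with log2 ratios of 2.26, 1.63 and 1.56.

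The Epcam+ Icam+ and Epcam+ libraries were compared within tip cells and within macrophages, neither of them gated on Icam1. The sort cannot be told apart from the library, its software version and its gene table, with 2 libraries against 1 and 1 residual degree of freedom. The spread comes from the Epcam+ Icam+ pair, and the lone Epcam+ library is assumed to vary like it, so that these calls compare libraries and carry little replication. In tip cells 24 of 38 members were lower in the Epcam+ Icam+ libraries and 2 higher (edgeR adjusted p under 0.05), against 22.9% of 7694 genes lower, 23.2% higher and 46.2% changed either way. The median was -0.78. Ccne2 was lower by a log2 of -1.75 (SE 0.402), Slbp by -1.70 (SE 0.157), Rrm2 by -1.64, Mcm5 by -1.57, Chaf1b by -1.45 and Mcm2 by -1.42. Of the licensing and helicase genes 7 of 8 were lower, Mcm4 being the exception with 56.9, 59.1 and 49.9 CPM. Pola1, the catalytic subunit of the priming polymerase, was higher by 1.23 (71.5, 28.9 and 20.2 CPM, where the Epcam+ Icam+ replicates differ from each other more than replicate 2 does from the Epcam+ library) and Atad2 by 0.82 (104, 74.2 and 48.7 CPM). DESeq2 called 6 members. Cell type markers of the tip class moved with the sort too. The tip list without Sox9 held 1.82 and 1.79 UMIs per tip cell against 4.64 in the Epcam+ library, and alveolar type 2 genes 44.5 and 36.7 against 13.2, and their part in the result was not tested.

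In macrophages, 12 members were lower and 1 higher of 38 tested (edgeR adjusted p under 0.05), against 7.11% of 9684 genes lower, 9.46% higher and 16.6% changed either way, with a median of -0.79. Cdca7 was lower by -2.63 (SE 0.424), Fen1 by -2.26 (21.2, 17.6 and 101 CPM), Rrm2 by -1.85, Ung by -1.82 (11.6, 8.17 and 38.4 CPM) and Mcm5 by -1.49. Pola1 was again higher, by 3.07, from 22.8 and 20.6 CPM against a single UMI in the 73 macrophages of the Epcam+ library. DESeq2 called 4 members. Epithelial genes in macrophages also moved with the sort, at 1.67 and 1.49 UMIs per cell against 3.22, with Epcam at 90.6 and 65.8 CPM against 175, and their part was not tested. These comparisons and that of tip cells use separate cells of the same libraries. Of the 40 other replication genes, 24 of 37 tested were lower and 3 higher in tip cells, and 8 of 36 lower and 0 higher in macrophages. Median mitochondrial shares moved with the library as well, at 2.81%, 2.75% and 2.14% in tip cells and 3.45%, 3.48% and 2.05% in macrophages, and their part in these differences was not tested.

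**Figure D5:**
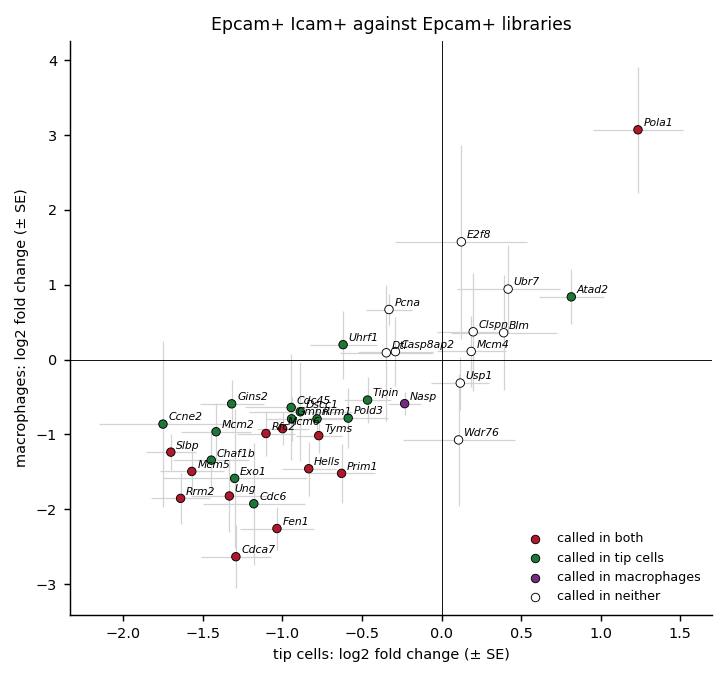
Log2 difference of the Epcam+ Icam+ libraries from the Epcam+ library in tip cells (horizontal axis) and in macrophages (vertical axis), with SE bars, for each member except Brip1, which had no UMI in the macrophages of the Epcam+ library. Most points lie below 0 on both axes, and Pola1, at 1.23 and 3.07, is the farthest point to the upper right.

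Whether the step from tip cells to macrophages differed between sorts was tested with a class by sort term in edgeR. It passed for 1 of 38 members (2.63%), no larger a share than the 2.61% of all 9996 genes, so the count is no result about the members. That member was Pcna, for which the macrophage minus tip difference was higher in the Epcam+ Icam+ libraries by 1.06 (SE 0.284, edgeR adjusted p = 0.0124), as the values of 146, 151 and 101 CPM in macrophages and 140, 143 and 174 in tip cells show. At an unadjusted p under 0.05 there were 4 members. The Pcna call was lost with another random draw of the UMIs (log2 0.76, edgeR adjusted p = 0.187), where 1 member was called in the lower direction in its place, and DESeq2 called 0 members. For the step from tip to airway cells 0 of 38 members passed the test between sorts, against 0.15% of genes, with 3 at an unadjusted p under 0.05 and 0 by DESeq2. A step that misses the threshold is not shown to be equal between sorts.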

How the data were processed

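Each deposited table holds UMI counts of genes (rows) in barcodes (columns) for 1 of 3 droplet libraries (10x Genomics, 3'). Per the submitters' processing notes the authors used Cell Ranger 2.1.1 with mm10. Per the file headers, versions 5.0.1 (both Epcam+ Icam+ libraries) and 3.0.2 (Epcam+) wrote the tables. Groups and replicate numbers come from the labels. Genes were joined by Ensembl ID, and 597 of the 30406 shared IDs carried another symbol.

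Barcodes with at least 1000 UMIs, 500 genes and at most 10% mitochondrial UMIs were kept. The highest scrublet scores (scanpy 1.11.5) were left out at 0.8% per 1000 barcodes (129, 115 and 88 cells), because the automatic threshold found 0, 1 and 0 doublets. Cells were thinned to 5000 UMIs without replacement, which left out 405, 450 and 253 shallower cells, and were gated on the thinned counts. Near the epithelial gate, with 8 to 11 UMIs, lay 451, 458 and 880 cells. Free RNA was not removed.

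Counts summed per library and class (at least 20 cells) were fitted with edgeR 4.0.16 (TMM, filterByExpr, quasi-likelihood test, Benjamini-Hochberg over all genes at 0.05) in R 4.3.3, with library as a block for comparisons within libraries. Scripts were tested on simulated data. Shares carry exact binomial intervals, and intervals and floors cover counting error. Alternatives changed the depth, gates, markers, doublets, scaling, filter, block and tool (DESeq2 1.42.0). Classes of a library share its suspension and run, so the block pairs them by library.

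The members, the list of 40 other replication genes, the G2/M list and the markers were chosen with earlier results of these data known. Members named with values were those of known role (Pcna, Mcm2, Mcm4, Mcm5, Mcm6, Cdc6, Cdc45, Gins2, Rrm1, Rrm2, Tyms, Ccne2, E2f8, Uhrf1, Cdca7, Slbp) and the largest called changes with 1 direction in every library and a mean of at least 20 CPM. Others were named after their values were seen. Reads of Ccne2, Cdc45, Dscc1, E2f8, Fen1, Gins2, Rfc2, Slbp and Ubr7, whose exons overlap a gene on the other strand, rest on the strand setting of the counting, which is not given in the sources used here.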

Additional observations from a re-analysis of the deposited data

Results flagged for a closer look

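Pcna was the member whose macrophage minus tip difference differed between the Epcam+ Icam+ and Epcam+ libraries, by a log2 of 1.06 (SE 0.284, edgeR adjusted p = 0.0124). A single call among 38 members (2.63%) is no more than the 2.61% of all genes called. Its level was only slightly higher in macrophages than in tip cells in both Epcam+ Icam+ libraries and was lower in the Epcam+ library. With another random draw of the UMIs, and without scaling factors, 1 member was called in the lower direction in its place. The call was kept under 7 alternatives and lost under 6, with values between 0.66 and 1.57 and edgeR or DESeq2 adjusted p between 3.8e-05 and 0.805.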

How the results depend on the processing

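Counts of called members changed with the settings. With cells thinned to 3000 UMIs they were 3 (airway), 9 (macrophages), 6 (G2/M), 5 (sort in tip cells), 6 (sort in macrophages) and 0 (macrophage minus tip), and with 10000 UMIs 22 (airway), 2 (Hopx/Clic5-positive), 20 (sort in macrophages) and 2 (macrophage minus tip). Unthinned sums gave 21 (airway), 30 (sort in macrophages), 10 (macrophage minus tip) and 1 (airway minus tip). Class markers at 2 UMIs gave 3, 14 (macrophages), 13 (G2/M), 8 (sort in tip cells) and 0, and gates at 20 UMIs gave 5 (macrophages), 4 (sort in tip cells) and 0. DESeq2 called 2 (airway), 6 and 4 (sorts) and 0. Marker sums for tip and airway, chosen after seeing the data, gave 2 for macrophage minus tip. G2/M calls were 2 in tip cells alone and 12 in macrophages alone. Leave-outs gave 1 to 2 members (airway), 0 to 1 (Hopx/Clic5-positive), 18 to 20 (macrophages) and 12 to 28 (G2/M). Without the replicate block, which pairs classes of a library, 0 (airway), 10 (macrophages) and 4 (G2/M) passed, and Hopx/Clic5-positive stayed at 0.

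The airway share difference was -8.49 points with at least 5 UMIs and -13.3 at 10000 UMIs, where that of Hopx/Clic5-positive cells was -11.5. That of macrophages was -20.4 at 3000 UMIs, -18.4 with gates at 20, -37.0 with gates at 5 (added after seeing the data), -23.6 with at least 5 UMIs and -18.5 with at least 20. The Hopx/Clic5-positive difference changed sign without Epcam+ Icam+ replicate 2, and leave-outs ranged from -9.35 to 0.57. Of 797 alternatives of 55 calls of named members 645 held, 148 were lost and 4 changed sign, Rrm1 in airway cells at 3000 UMIs (0.086), Gins2 (-0.58) and Uhrf1 (-0.23) by G2/M in tip cells alone, and Atad2 by sort in tip cells with gates at 20 UMIs (-0.41). These calls held unevenly. The airway calls among the 55 held under 7 to 12 of their 15 or 16 alternatives, with 7 for Mcm5, Rrm1 and Chaf1b and 12 for Tyms. The Gins2 call by G2/M held under 8 of 18. Causes were not tested. Without scaling factors the median over all genes moved from 0.02 to -0.30 in macrophages, where 32 members fell, from -0.07 to 0.03 for G2/M, from 0.09 to -0.03 for the sort in macrophages and from 0.15 to -0.07 for macrophage minus tip, where the Pcna call was lost. No paired analysis was possible for the sorts because the Epcam+ library has no numbered partner. Leave-outs of the sort comparisons and airway with gates at 20 UMIs were not run for want of libraries or cells.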
